A study of Homo sapiens with 32 samples.

Results

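The genes described here are 10 markers of squamous differentiation, followed through TGFβ1 treatment of MCF10A cells with an intact or an edited JUNB gene. They are IVL, SPRR1A, SPRR1B, SPRR3, TGM1, A2ML1, KLK5, KLK6, KLK7 and KLK10, and they were chosen by name, by matching the Ensembl identifiers of the count table to GENCODE symbols. The choice was made with earlier results of these data known, so that comparisons of the 10 genes with all genes are descriptive only. All 10 were found among the 17788 genes of the table, and all 10 were among the 14865 genes that passed the filter on low counts.

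Stratified epithelia such as the epidermis end their differentiation by building a cornified envelope, a protein shell under the plasma membrane that is assembled from precursors such as involucrin and the small proline-rich (SPRR) proteins and is crosslinked by transglutaminases. Secreted serine proteases of the kallikrein family then cleave the junctions between the outermost cells, and protease inhibitors hold this activity in check. Transcription factors of the activator protein 1 (AP-1) family, dimers of JUN and FOS proteins to which JUNB belongs, bind regulatory elements of several of these genes, and mammary epithelial cells in culture can express parts of this programme without forming a stratified tissue.

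The AP-1 consensus can be read directly in the promoters of the envelope precursors. The 250 bases before the start site are shown for the 4 genes whose promoter window, from 250 bases before to 50 bases after the start, held the letters TGANTCA, with the matches in capitals. The sequences were taken from RefSeq on GRCh38.p14, run 5′ to 3′ and lie on the plus strand of chromosome 1.
IVL, chr1:152908296-152908545: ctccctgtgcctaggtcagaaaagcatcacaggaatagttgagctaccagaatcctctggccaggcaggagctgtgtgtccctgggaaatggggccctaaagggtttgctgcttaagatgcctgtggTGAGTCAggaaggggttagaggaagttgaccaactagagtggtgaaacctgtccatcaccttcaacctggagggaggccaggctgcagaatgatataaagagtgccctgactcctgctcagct
SPRR1A, chr1:152983831-152984080: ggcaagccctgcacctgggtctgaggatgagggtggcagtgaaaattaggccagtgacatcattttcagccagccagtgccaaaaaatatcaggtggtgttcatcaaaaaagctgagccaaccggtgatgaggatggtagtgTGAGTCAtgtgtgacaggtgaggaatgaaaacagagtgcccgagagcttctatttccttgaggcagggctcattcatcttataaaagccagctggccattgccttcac
SPRR1B, chr1:153030953-153031202: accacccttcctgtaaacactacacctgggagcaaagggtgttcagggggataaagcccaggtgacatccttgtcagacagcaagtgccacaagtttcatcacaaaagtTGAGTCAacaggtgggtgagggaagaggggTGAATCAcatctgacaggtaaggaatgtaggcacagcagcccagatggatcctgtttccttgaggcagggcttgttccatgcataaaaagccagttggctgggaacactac
SPRR3, chr1:153001499-153001748: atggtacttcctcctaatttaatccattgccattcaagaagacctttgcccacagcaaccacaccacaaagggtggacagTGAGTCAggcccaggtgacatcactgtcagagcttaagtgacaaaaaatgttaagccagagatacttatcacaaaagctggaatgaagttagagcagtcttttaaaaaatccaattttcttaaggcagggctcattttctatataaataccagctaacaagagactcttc
The match began at position -123 from the start site in IVL, -108 in SPRR1A and -170 in SPRR3, and SPRR1B held matches at -141 and -111. Promoter windows were found for 9 of the 10 genes, all but TGM1, and no window of A2ML1, KLK5, KLK6, KLK7 or KLK10 held these letters. Among all 35116 promoter windows of the same length, 7.71% held TGANTCA on either strand. The letters TATAAA occurred in IVL, SPRR1A, SPRR3 and A2ML1, and in 11.5% of all windows. The grainyhead-type motif AACNGGTT occurred in 0 of the 9 genes and in 1.73% of all windows. A match describes the letters of a window and does not show that a factor was bound there.

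MCF10A is an immortalized, non-tumorigenic human mammary epithelial cell line, grown here with horse serum, EGF, hydrocortisone, cholera toxin and insulin. RNA sequencing covered 32 libraries in 8 groups of 4, namely JUNB wild-type (WT) and JUNB mutant (mut) clones that received solvent or 5 ng/ml TGFβ1 for 6, 24 or 72 h. The mut clones are labelled as JUNB knock-out, were grown from single cells after CRISPR/Cas9 editing, and according to the study keep a weak, smaller JUNB polypeptide. Each genotype was represented by 2 clones, 27 and 2 for WT and 1 and 65 for mut, each with 2 replications, so that genotype and clone cannot be told apart beyond the agreement of 2 clones, and p-values measure the spread between these libraries. Solvent libraries are labelled with time 0, whereas the study's methods give solvent for 72 h, and TGFβ1 and solvent were renewed every 48 h. Libraries that share a clone and a replication number are called a culture series, and values given in sequence follow the order 27-1, 2-1, 27-2, 2-2 for WT and 1-1, 65-1, 1-2, 65-2 for mut.

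The libraries held between 39702412 and 54651906 counts, and levels are given as counts per 1000000 counts of the library (CPM). A value of 3 counts, used as the floor, corresponded to 0.0549 to 0.0756 CPM. JUNB transcript ranged from 69.2 to 518 CPM and did not check the genotype labels, because edited cells still held JUNB transcript. All 8 markers of basal mammary epithelium had a mean over 10 CPM, as did 5 of 6 general epithelial markers (KRT19 was near 0). Markers of other cell types were low beside the summed 10600 to 17400 CPM of the basal markers. Their sums were 15.2 to 91.3 CPM for 6 fibroblast genes, 2.51 to 28.8 CPM for 4 leukocyte genes, 2.94 to 27 CPM for 2 endothelial genes and 0.603 to 1.35 CPM for 3 melanocyte genes. COL1A2, COL3A1, PTPRC, CD3E and VWF had a median of 0 CPM, whereas COL1A1, DCN, CD14 and KDR had medians of 17.0, 14.8, 10.0 and 14.1 CPM. The leukocyte sum was 22.8 to 28.8 CPM in mut solvent and 10.7 to 19.6 CPM in WT solvent. The endothelial sum was 21.1 to 27 CPM in mut solvent and 5.62 to 15.1 CPM in WT solvent. The fibroblast sum was 15.2 to 22.1 CPM in WT solvent and 39 to 60.1 CPM in WT cells at 72 h, and the part of these markers in the results was not tested. The WT series 27-2 stood apart from the other WT series on the third principal component, with values of -54.6 to -44 against 11.2 to 37. In these bulk libraries, fewer cells expressing a gene and less RNA per cell cannot be told apart.

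Levels between genes can be compared only per length, as CPM per kilobase of merged exons. In WT solvent cells, SPRR1B had the highest mean level at 63.9 ± 28.8 (SD, n = 4), followed by KLK7 at 38.6 ± 44.3, TGM1 at 29.8 ± 15.1, KLK5 at 24.1 ± 22.8 and KLK10 at 20.0 ± 20.5 CPM per kilobase. SPRR1A followed at 10.3 ± 3.9, SPRR3 at 4.63 ± 2.07, A2ML1 at 4.4 ± 3.56, IVL at 3.66 ± 2.42 and KLK6 at 0.723 ± 0.649 CPM per kilobase. The ranges of 8 of the 9 neighbouring pairs in this order overlapped, the exception being SPRR1A and SPRR3. After 72 h of TGFβ1 in mut cells TGM1 led at 10.3 ± 1.56, before KLK7 at 4.83 ± 2.7 and KLK5 at 3.66 ± 0.507 CPM per kilobase, and SPRR3 was at 0 in all 4 libraries.

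**Figure D1:**
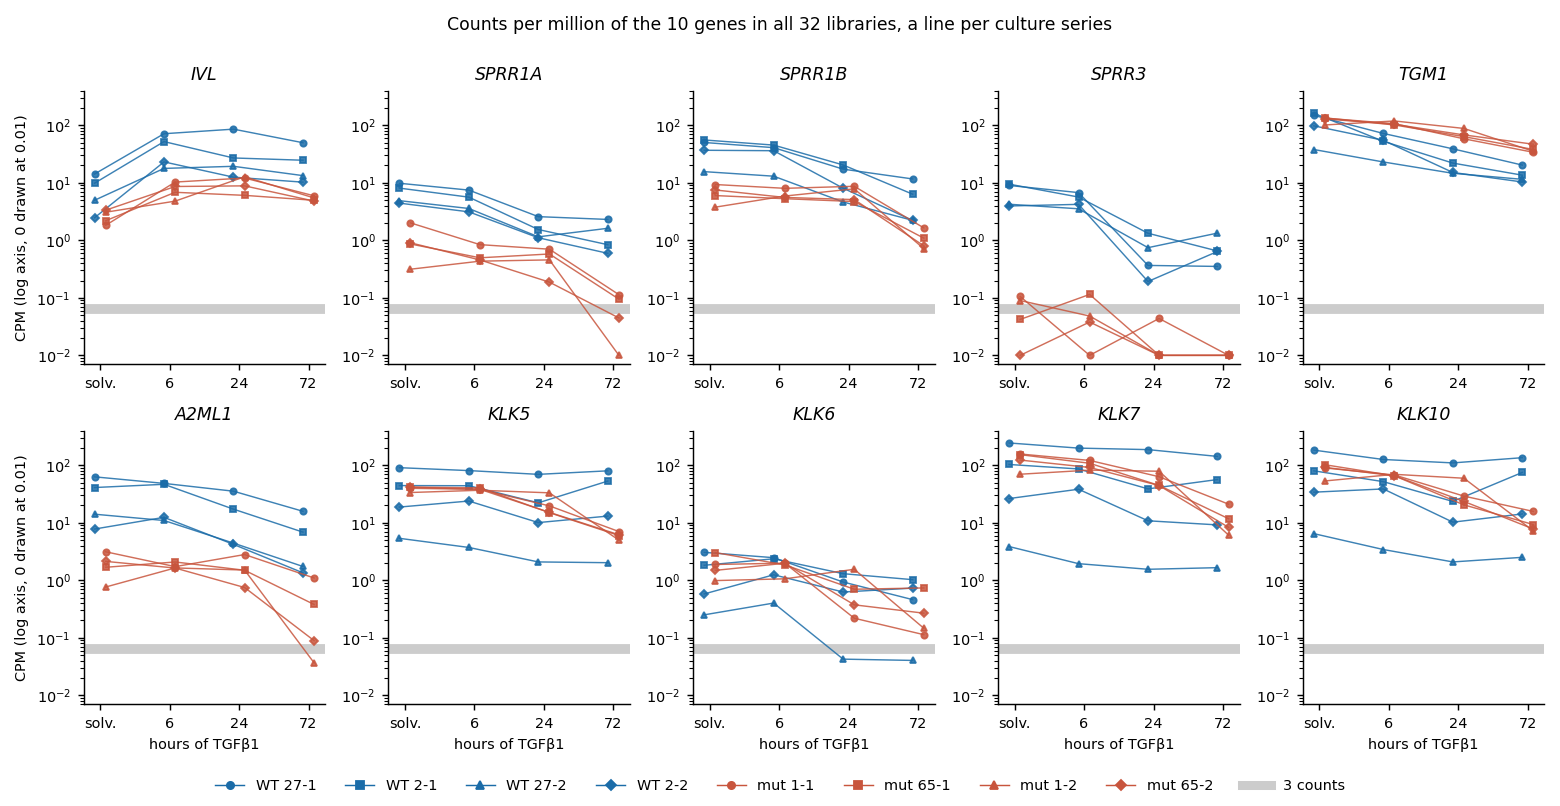
Level in CPM (log axis, 0 drawn at 0.01) of each of the 10 genes against treatment (solvent, then 6, 24 and 72 h of TGFβ1), with a line per culture series, WT in blue, mut in red and the level of 3 counts as a grey band. SPRR3 lies around or under the grey band in mut libraries, IVL is the gene that rises, and the KLK5, KLK7 and KLK10 lines of the WT series lie far apart.

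Near the detection floor, defined as a mean of at most 3 counts in a group, were SPRR3 in all 4 mut groups and SPRR1A in mut cells at 72 h. SPRR3 had at most 3 counts in 13 of the 32 libraries and 0 counts in 9. A2ML1 had at most 3 counts in 1 library and KLK6 in 2, although no group mean of either reached the floor. IVL, SPRR1B, TGM1, KLK5, KLK7 and KLK10 stayed above 3 counts in every library.

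In WT cells TGFβ1 lowered the SPRR genes, TGM1 and, by 72 h, A2ML1, and raised IVL. In the two-sided limma-voom test over all genes, 2 of the 10 genes passed an adjusted p of 0.05 at 6 h (17.0% of all tested genes passed), 5 at 24 h (52.1%) and 6 at 72 h (52.2%). At 24 h 1 was higher and 4 were lower (38.0% of all genes were lower), and at 72 h 1 was higher and 5 were lower (38.4% of all genes were lower). At each time these counts were near the shares of all genes and do not set the 10 genes apart. The median log2 change of the 10 genes at 6, 24 and 72 h was -0.31, -1.32 and -2.0, beside -0.08, -0.18 and -0.19 over all tested genes. With culture series as a block, 3 genes passed at 6 h (25.9% of all genes), 9 at 24 h (59.6%) and 8 at 72 h (60.0%).

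Library-size scaling left the median gene below 0 in WT cells after TGFβ1. With TMM factors (edgeR's trimmed mean of M-values) the median of all genes was 0.00138 at 24 h and -0.0286 at 72 h. The share of higher genes among all called ones moved with TMM from 30.2% to 53.1% at 6 h, from 27.1% to 50.3% at 24 h and from 26.5% to 48.0% at 72 h. In mut cells it moved from 29.4% to 57.6%, from 28.4% to 53.5% and from 32.4% to 52.0% at the same times. Between genotypes it moved from 66.9% to 48.3% at 24 h and from 66.3% to 51.1% at 72 h. For the difference between genotypes in the TGFβ1 change it moved from 80.0% to 51.4% at 24 h and from 76.3% to 52.2% at 72 h. None of the 10 genes that passed in a comparison changed direction with TMM.

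In mut cells the number of the 10 genes that passed depended on the test. At 6 h 0 passed (7.00% of all genes) in limma-voom, with 0 of the 10 under an unadjusted p of 0.05 and 0 called by edgeR and 0 by DESeq2. At 24 h 1 passed (23.8%) and at 72 h 3 (24.1%), all 3 lower (16.3% of all genes were lower). At 72 h edgeR called 7 and DESeq2 9 in mut cells, against 6 and 6 in WT cells. The shares of all genes that edgeR and DESeq2 called are not given here, and the percentages above belong to limma-voom. The median log2 change of the 10 genes at 72 h was -2.78, beside -0.09 over all tested genes. With the block, 1 gene passed at 6 h (16.5% of all genes), 7 at 24 h (35.0%) and 9 at 72 h (33.9%). At 72 h 7 of the 10 genes had all 4 treated libraries below all 4 solvent libraries, and IVL had all 4 above. The share of all genes separated in this way is not given here, so the count only describes the 10 genes.

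Between genotypes, the SPRR genes and A2ML1 were lower in mut cells before any TGFβ1 was added. In solvent 4 genes passed (12.7% of all genes), all 4 lower (6.32% of all genes were lower). At 6 h 6 passed (21.4%), of which 5 were lower and TGM1 was higher. At 24 h 4 passed (36.9%) and at 72 h 4 (39.2%), of which 3 at each time were lower and TGM1 was higher. In comparisons between genotypes, here and below, the block was the replication number and not the culture series. With it the counts were 5 at 24 h (38.6%) and 6 at 72 h (41.0%). The TGFβ1 comparisons of a genotype share its solvent libraries.

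**Figure D2:**
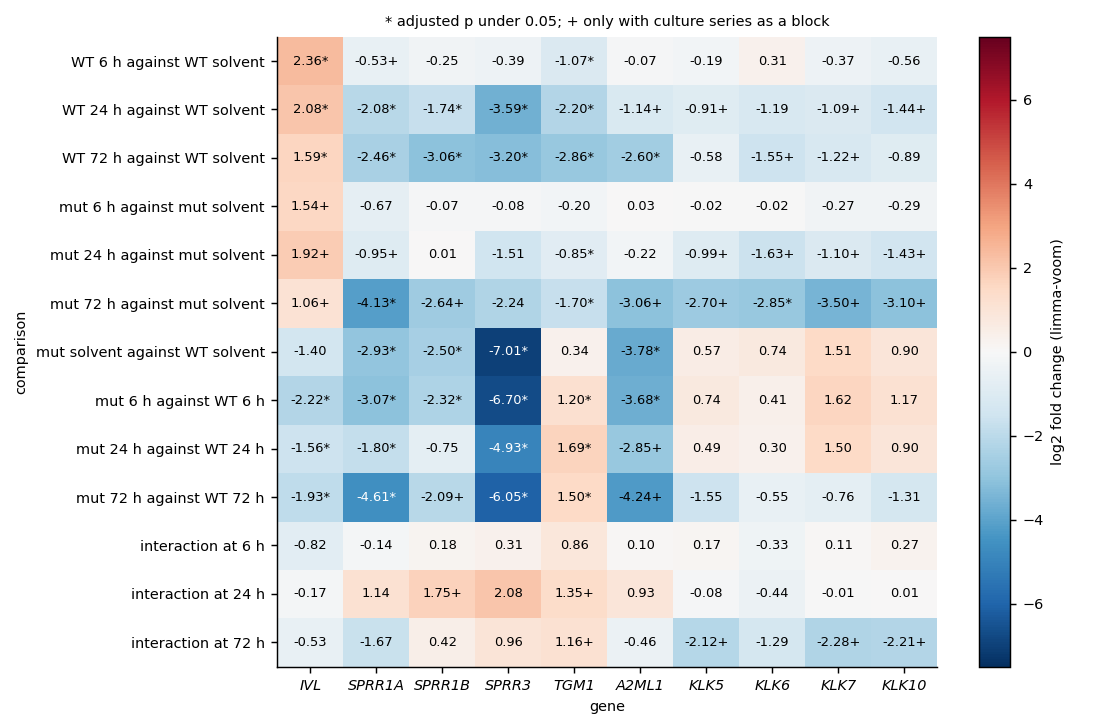
Log2 fold change (colour and number) of the 10 genes (columns) in the 13 comparisons (rows) of the limma-voom test, with marks for an adjusted p under 0.05 and for genes that passed only with culture series as a block. In the rows between genotypes the block was the replication number instead. IVL is positive after TGFβ1 at each time in both genotypes, and SPRR3 shows the lowest fitted values between genotypes, down to -7.01.

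IVL encodes involucrin, a precursor of the cornified envelope (ENSG00000163207, chromosome 1 from 152908546 to 152911886, plus strand). In WT cells its level was 14.2, 9.84, 4.97 and 2.47 CPM in solvent and 71.3, 52, 17.8 and 23.1 CPM after 6 h, so that all 4 treated libraries lay above all solvent libraries. The log2 change was 2.36 ± 0.63 (SE) at 6 h (limma-voom adjusted p = 0.00977), 2.08 ± 0.64 at 24 h (adjusted p = 0.00763) and 1.59 ± 0.66 at 72 h (adjusted p = 0.0443). At 72 h the WT levels were 49.7, 24.7, 13.3 and 10.3 CPM and overlapped with solvent, although within each series IVL was higher, by 1.33 to 2.05 on the log2 scale. The call at 72 h was lost without the WT series 27-2 (adjusted p = 0.0551) and without any of 6 single libraries (adjusted p = 0.0511 to 0.152), 5 of them WT solvent or WT 72 h libraries and the other mut 65-2 at 72 h. On the WT libraries alone the adjusted p at 6, 24 and 72 h was 0.0712, 0.0529 and 0.145, and with the block that at 72 h was 5.5e-07.

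In mut cells the IVL levels were 1.82, 2.19, 3.08 and 3.34 CPM with solvent, 10.3, 6.84, 4.8 and 8.62 CPM after 6 h and 5.94, 4.96, 5.46 and 4.81 CPM after 72 h. All 4 libraries at 6, 24 and 72 h lay above the solvent libraries. The log2 change was 1.54 ± 0.93 at 6 h (limma-voom adjusted p = 0.34), 1.92 ± 0.92 at 24 h (adjusted p = 0.129) and 1.06 ± 0.97 at 72 h (adjusted p = 0.464). With the block it was 1.56 ± 0.34, 1.94 ± 0.33 and 1.05 ± 0.35 (adjusted p = 0.0028, 5.76e-05 and 0.0208), and all 3 passed. On sums of the replications of a clone none of the 3 passed (adjusted p = 0.288, 0.0952 and 0.399). The difference between the genotypes in the IVL change did not pass at 72 h (-0.53 ± 1.17, adjusted p = 0.825, with the block 0.328).

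IVL was lower in mut than in WT cells at each time after TGFβ1. The log2 difference was -2.22 ± 0.59 at 6 h (limma-voom adjusted p = 0.00758), -1.56 ± 0.57 at 24 h (adjusted p = 0.033) and -1.93 ± 0.68 at 72 h (adjusted p = 0.0238). The call at 24 h was lost without WT 27-1, mut 65-1, mut 1-2 or mut 65-2 at 24 h (adjusted p = 0.0519 to 0.165), and the call at 72 h without WT 27-1, mut 1-2 or mut 65-2 at 72 h (adjusted p = 0.0505 to 0.0877). The groups overlapped at 24 h, with the lowest WT library at 12.53 CPM and the highest mut library at 12.74 CPM. In solvent the difference was -1.40 ± 0.96 (limma-voom adjusted p = 0.376). It was -1.6 in edgeR (adjusted p = 0.0635) and -1.59 in DESeq2 (adjusted p = 0.0386), which called it.

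SPRR1A and SPRR1B encode small proline-rich precursors of the envelope and are near-identical genes on both sides of SPRR3 (ENSG00000169474, chromosome 1 from 152984081 to 152985814, plus strand, and ENSG00000169469, chromosome 1 from 153031203 to 153032900, plus strand), so that reads could have been split between them and each value is uncertain to that extent. SPRR1A was at 9.82, 8.09, 4.89 and 4.43 CPM in WT solvent and at 2.31, 0.839, 1.62 and 0.594 CPM after 72 h. SPRR1B was at 50.2, 55.6, 15.6 and 36.8 CPM in WT solvent and at 11.7, 6.34, 2.23 and 2.22 CPM after 72 h. For both genes every library at 72 h lay below every solvent library. SPRR1A fell, with a log2 change of -2.08 ± 0.38 at 24 h (limma-voom adjusted p = 4.24e-05) and -2.46 ± 0.42 at 72 h (adjusted p = 1.97e-05). SPRR1B fell, with a log2 change of -1.74 ± 0.44 at 24 h (adjusted p = 0.00136) and -3.06 ± 0.57 at 72 h (adjusted p = 5.83e-05). At 6 h the log2 change was -0.53 ± 0.28 for SPRR1A (adjusted p = 0.213, with the block 0.0155) and -0.25 ± 0.36 for SPRR1B (adjusted p = 0.701).

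Both genes were lower in untreated mut cells. SPRR1A was at 2.01, 0.863, 0.315 and 0.905 CPM and SPRR1B at 9.33, 6.0, 3.77 and 7.5 CPM in mut solvent, below every WT solvent library. The log2 difference from WT was -2.93 ± 0.47 for SPRR1A (limma-voom adjusted p = 6.61e-05) and -2.50 ± 0.50 for SPRR1B (adjusted p = 0.000973). At 6 h it was -3.07 ± 0.56 and -2.32 ± 0.51 (adjusted p = 0.000183 and 0.0014). At 24 h SPRR1A differed by -1.80 ± 0.67 (adjusted p = 0.0355), a call that was lost without any of 5 libraries (WT 27-1, WT 2-1, mut 65-1, mut 1-2 or mut 65-2 at 24 h, adjusted p = 0.0503 to 0.114). SPRR1B differed there by -0.75 ± 0.57 (adjusted p = 0.323).

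At 24 h SPRR1B passed the test in WT but not in mut cells, and the difference was tested itself. It was at 17.3, 20.4, 4.64 and 8.06 CPM in WT cells and at 8.69, 4.72, 7.86 and 5.1 CPM in mut cells at 24 h, a log2 change of 0.01 ± 0.63 from mut solvent. The difference between the genotypes in this change was 1.75 ± 0.76 (limma-voom adjusted p = 0.152) and with the block 1.65 ± 0.29 (adjusted p = 0.000348). Leaving out the WT solvent library of series 27-2 also brought it past the threshold (adjusted p = 0.0447).

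By 72 h SPRR1B in mut cells was at 1.65, 1.09, 0.716 and 0.805 CPM, below every mut solvent library. The log2 change was -2.64 ± 1.03 (limma-voom adjusted p = 0.0625), with an adjusted p of 1.24e-05 with the block, 0.000793 in edgeR and 0.0026 without the WT series 27-2. SPRR1A was near the floor, with 6, 4, 0 and 2 counts. Over the 4 libraries this was 12 counts against 195 in solvent, a 16.7-fold lower level with an exact 95% interval of 9.34 to 32.9 for counting error only. The fitted log2 change of SPRR1A was -4.13 ± 1.21 (adjusted p = 0.013), and the call was lost without mut 1-2 at 72 h (adjusted p = 0.0552). Between genotypes at 72 h SPRR1A was 22-fold lower in mut cells in summed counts (interval 12.4 to 43.2, fitted adjusted p = 0.00289). SPRR1B differed by -2.09 ± 1.07 (adjusted p = 0.126, with the block 0.0163).

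SPRR3 encodes a further proline-rich precursor that is abundant in the lining of the oesophagus (ENSG00000163209, chromosome 1 from 153001747 to 153003856, plus strand). It had the widest gap between genotypes of the 10 genes in solvent. WT solvent libraries held 9.0, 9.48, 4.24 and 3.95 CPM, or 429, 421, 169 and 157 counts, whereas mut solvent libraries held 5, 2, 4 and 0 counts. Summed counts gave a 118-fold lower level in mut cells with an exact 95% interval of 65.6 to 236, and the limma-voom adjusted p was 2.2e-05. At 6 h the summed level was 93.9-fold lower (10 counts against 909, interval 50.8 to 196). At 24 h the ratio was 55.7 (2 counts against 119, interval 15.1 to 466). At 72 h all 4 mut libraries held 0 counts, and SPRR3 was at least 39.5-fold lower than the 138 counts of WT cells by the lower limit of the exact 95% interval. Set against 3 counts summed over the 4 mut libraries, a lower floor than 3 counts in each library, the ratio was 49.2.

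In WT cells SPRR3 fell, with a log2 change of -3.59 ± 0.50 at 24 h (limma-voom adjusted p = 7.53e-07) and -3.20 ± 0.46 at 72 h (adjusted p = 1.56e-06). The levels were 0.366, 1.33, 0.745 and 0.192 CPM at 24 h and 0.352, 0.653, 1.33 and 0.64 CPM at 72 h, each below every solvent library. At 6 h they were 6.75, 5.65, 3.53 and 4.22 CPM and overlapped with solvent (log2 change -0.39 ± 0.25, adjusted p = 0.324). No fold is given for SPRR3 within mut cells, since all 4 groups were near the floor.

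TGM1 encodes transglutaminase 1, the membrane-anchored enzyme that crosslinks the envelope (ENSG00000092295, chromosome 14 from 24249114 to 24264432, minus strand). It fell in both genotypes by 72 h, and it was the only one of the 10 genes called higher in mut than in WT cells, at 6, 24 and 72 h of TGFβ1. WT levels were 149, 162, 37.9 and 97.7 CPM with solvent, 72.1, 52.6, 23 and 54.8 CPM after 6 h and 20.3, 13.6, 11.5 and 10.3 CPM after 72 h. Mut levels were 133, 134, 101 and 129 CPM with solvent, 107, 101, 119 and 104 CPM after 6 h and 33.9, 38, 35.3 and 46.8 CPM after 72 h. At 72 h all libraries of each genotype lay below that genotype's solvent libraries, and every mut library lay above every WT library.

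In WT cells TGM1 fell, with a log2 change of -1.07 ± 0.32 at 6 h (limma-voom adjusted p = 0.0221), -2.20 ± 0.37 at 24 h (adjusted p = 1.1e-05) and -2.86 ± 0.41 at 72 h (adjusted p = 1.29e-06). The call at 6 h was lost without WT solvent 27-1, WT solvent 2-1 or WT 27-2 at 6 h (adjusted p = 0.0907 to 0.12). In mut cells the log2 change was -0.20 ± 0.30 at 6 h (adjusted p = 0.755), -0.85 ± 0.31 at 24 h (adjusted p = 0.0466) and -1.70 ± 0.33 at 72 h (adjusted p = 0.0003). The call at 24 h was lost with TMM factors (adjusted p = 0.0849), with edgeR (0.105), with DESeq2 (0.0971) and without any of 17 single libraries (0.0501 to 0.125), and it held with the block (adjusted p = 0.000192).

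Untreated TGM1 differed between the genotypes by 0.34 ± 0.31 (limma-voom adjusted p = 0.522). After TGFβ1 mut cells were higher by 1.20 ± 0.32 at 6 h (adjusted p = 0.0078), 1.69 ± 0.37 at 24 h (adjusted p = 0.00076) and 1.5 ± 0.42 at 72 h (adjusted p = 0.00576), and the call at 6 h was lost without WT 27-2 at 6 h (adjusted p = 0.0529). The difference between the genotypes in the TGM1 change was 1.35 ± 0.48 at 24 h (adjusted p = 0.0744) and 1.16 ± 0.52 at 72 h (adjusted p = 0.147). With the block it passed, at 1.39 ± 0.25 (adjusted p = 0.000372) and 1.23 ± 0.27 (adjusted p = 0.00158). Without the WT solvent library of series 27-2, which had the lowest TGM1 level of its group, the adjusted p was 0.00409 at 24 h and 0.00948 at 72 h.

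A2ML1 encodes an alpha-2-macroglobulin-like protease inhibitor of the epidermis (ENSG00000166535, chromosome 12 from 8822621 to 8887001, plus strand). Its levels were 62.9, 41, 14.1 and 7.78 CPM in WT solvent and 3.13, 1.68, 0.764 and 2.13 CPM in mut solvent, so that every mut library lay below every WT library. The log2 difference was -3.78 ± 1.12 (limma-voom adjusted p = 0.0234), but leaving out any of the 4 mut solvent libraries raised the adjusted p to 0.0545 to 0.0708. At 6 h the log2 difference was -3.68 ± 1.10 (adjusted p = 0.0167), and the call was lost without mut 65-2 at 6 h (adjusted p = 0.0505). At 24 h it was -2.85 ± 1.26 (adjusted p = 0.0767, with the block 8.39e-06) and at 72 h -4.24 ± 2.53 (adjusted p = 0.192, with the block 0.00136).

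After 72 h of TGFβ1 A2ML1 was at 15.8, 6.88, 1.74 and 1.35 CPM in WT cells and at 1.1, 0.38, 0.0367 and 0.0894 CPM in mut cells. In WT cells it fell, with a log2 change of -2.60 ± 0.84 (limma-voom adjusted p = 0.0109), and the adjusted p was 0.0638 on the WT libraries alone. Within the 4 WT series the log2 ratio ranged from -3.01 to -1.99, and within the mut series from -4.41 to -1.51. In mut cells the log2 change was -3.06 ± 2.64 (adjusted p = 0.432, with the block 0.00855). The 4 mut libraries held 58, 16, 2 and 4 counts. At 24 h the log2 change was -1.14 ± 0.64 in WT (adjusted p = 0.137, with the block 6.19e-06) and -0.22 ± 1.56 in mut cells (adjusted p = 0.942).

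The kallikreins KLK5 and KLK7, a trypsin-like and a chymotrypsin-like protease that cleave the junctions of cornified cells, lie in a cluster on chromosome 19 with KLK6, a trypsin-like protease, and KLK10. KLK5 (ENSG00000167754) runs from 50943303 to 50953093, KLK6 (ENSG00000167755) from 50958631 to 50969673, KLK7 (ENSG00000169035) from 50976468 to 50984099 and KLK10 (ENSG00000129451) from 51012739 to 51020175, all on the minus strand. In WT solvent, KLK5 was at 90.8, 44.4, 5.37 and 18.8 CPM, KLK7 at 244, 103, 3.86 and 26.4 CPM and KLK10 at 183, 80.0, 6.47 and 34 CPM. Series 27-1 was the highest, followed by 2-1, 2-2 and 27-2, for each of these 3 genes in each of the 4 WT groups (12 of 12 cases). The highest and the lowest series were thus replications of the same clone. KLK6 kept this order in 2 of the 4 WT groups, solvent and 6 h. The 12 cases are not independent, since they come from the same series and the 3 genes ran together (Pearson r = 0.96 to 0.985 over 32 libraries).

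The SD of log2 levels among WT solvent libraries was 2.61 for KLK7, larger than for 99.4% of tested genes, against a median of 0.15 over all genes. It was 1.75 for KLK5, 1.60 for KLK6 and 2.06 for KLK10. In mut solvent the SD was 0.15 for KLK5, 0.67 for KLK6, 0.54 for KLK7 and 0.42 for KLK10. The mut solvent levels were 39.7, 41.8, 33.6 and 41.5 CPM for KLK5, 157, 153, 69.8 and 123 CPM for KLK7 and 89.7, 102, 53.4 and 91.8 CPM for KLK10, inside the range of the WT solvent libraries. The log2 difference between genotypes in solvent was 0.57 ± 0.84 for KLK5 (limma-voom adjusted p = 0.723), 0.74 ± 0.70 for KLK6 (0.542), 1.51 ± 1.11 for KLK7 (0.412) and 0.90 ± 0.92 for KLK10 (0.583). These values rested on the WT series 27-2, without which they were -0.15, 0.14, 0.44 and 0.03, and edgeR gave -0.02, 0.37, 0.42 and 0.16 on all libraries. The mean KLK5 level was 39.2 CPM in mut and 39.8 CPM in WT solvent.

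**Figure D3:**
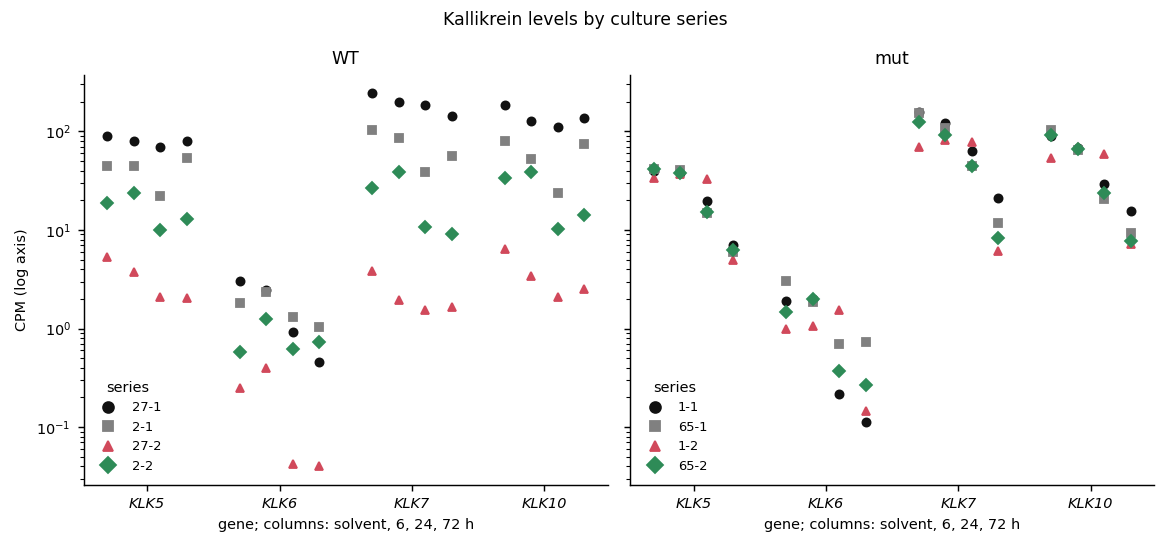
CPM (log axis) of the 4 kallikreins in WT (left) and mut (right) libraries by treatment (solvent, 6, 24 and 72 h), with a symbol per culture series. The WT series keep their order for KLK5, KLK7 and KLK10 at each time, over a range of up to 120.0-fold for KLK7, while the mut series lie closer together and drop at 72 h.

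In WT cells no kallikrein passed the limma-voom test at any time. At 72 h KLK5 was at 80.0, 53.1, 2.02 and 13.1 CPM, with a log2 change of -0.58 ± 0.94 (adjusted p = 0.628). KLK7 was at 142, 56.5, 1.66 and 9.19 CPM, with -1.22 ± 1.34 (adjusted p = 0.461), and KLK10 was at 135, 75.1, 2.51 and 14.2 CPM, with -0.89 ± 1.04 (adjusted p = 0.495). With the block KLK7 passed at 72 h (-0.95 ± 0.26, adjusted p = 0.00274), whereas the values were -0.17 ± 0.19 for KLK5 (adjusted p = 0.451) and -0.55 ± 0.29 for KLK10 (adjusted p = 0.0988). At 24 h all 3 passed with the block, with log2 changes of -0.71 ± 0.20, -0.92 ± 0.26 and -1.28 ± 0.30 (adjusted p = 0.00275, 0.00379 and 0.00062).

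In mut cells KLK5, KLK7 and KLK10 were lower at 72 h in every series. KLK5 was at 7.04, 6.0, 5.0 and 6.19 CPM, KLK7 at 21.1, 11.8, 6.1 and 8.31 CPM and KLK10 at 15.7, 9.3, 7.2 and 7.78 CPM, below every mut solvent library. Group means were 6.46-fold lower than in solvent for KLK5, 10.6-fold for KLK7 and 8.42-fold for KLK10. In the fit that shares its estimate of spread with the WT libraries, the limma-voom log2 changes of -2.70 ± 1.16 for KLK5 (adjusted p = 0.0901), -3.50 ± 1.43 for KLK7 (0.0749) and -3.10 ± 1.22 for KLK10 (0.0646) did not pass. In the same order, the adjusted p was 2.24e-09, 7.05e-10 and 4.5e-08 with the block, 3.16e-07, 1.45e-06 and 2.15e-06 on the mut libraries alone, 0.00568, 0.00631 and 0.00393 without the WT series 27-2, 0.033, 0.0413 and 0.0323 in edgeR and 0.0124, 0.0128 and 0.0102 in DESeq2. Leaving out any of 5 single WT libraries of clone 27 also brought KLK10 past the threshold (adjusted p = 0.0404 to 0.0483).

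At 24 h the mut levels were 19.7, 15, 33.2 and 15.2 CPM for KLK5, 63.2, 44.6, 78.7 and 44.4 CPM for KLK7 and 29.1, 20.5, 59.5 and 23.5 CPM for KLK10, and within series 1-2 the log2 ratio to solvent was -0.02, 0.17 and 0.16. The log2 changes were -0.99 ± 0.88, -1.10 ± 1.07 and -1.43 ± 0.97 (limma-voom adjusted p = 0.446, 0.493 and 0.298, with the block 0.000186, 0.00024 and 0.000157).

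KLK6 was the least abundant of the 4 per length in WT and mut solvent. In mut cells it was at 1.88, 3.03, 0.988 and 1.49 CPM in solvent and at 0.114, 0.736, 0.147 and 0.268 CPM, or 6, 31, 8 and 12 counts, at 72 h. Its log2 change of -2.85 ± 0.99 passed (limma-voom adjusted p = 0.0363), but the call was lost without mut solvent 1-1, mut solvent 65-1 or any mut library at 72 h (adjusted p = 0.0514 to 0.0972). In WT cells KLK6 was at 3.06, 1.82, 0.251 and 0.579 CPM in solvent and at 0.461, 1.03, 0.0404 and 0.731 CPM at 72 h, and the groups overlapped (log2 change -1.55 ± 0.98, adjusted p = 0.19, with the block 0.015).

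**Figure D4:**
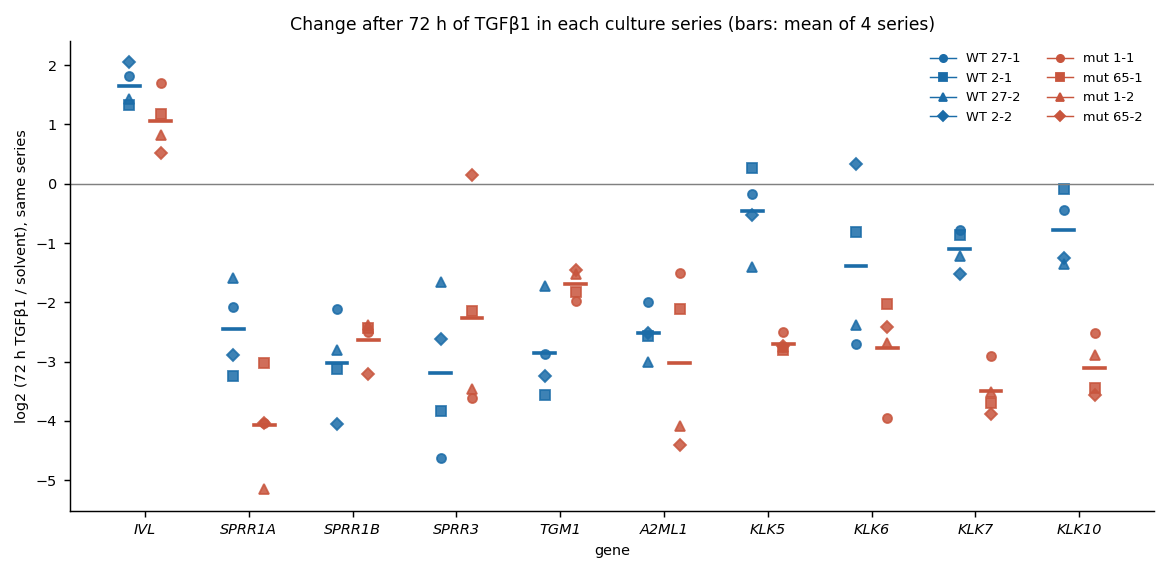
Log2 ratio of 72 h TGFβ1 to solvent within each culture series (symbols) for the 10 genes, WT in blue and mut in red, with bars at the mean of 4 series. For KLK5, KLK7 and KLK10 the mut series lie from -3.89 to -2.5 and the WT series from -1.52 to 0.26.

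The difference between the genotypes in the TGFβ1 change was tested as the interaction, in which a positive value means a higher log2 change in mut cells. In limma-voom 0 of the 10 genes passed at 6 h (0.0740% of all genes), 0 at 24 h (9.65%) and 0 at 72 h (12.3%), where 0, 2 and 1 had an unadjusted p under 0.05. At these times edgeR called 0, 0 and 0, and DESeq2 called 0, 1 and 0, without their shares of all genes being given here. With the block, 2 passed at 24 h (18.7% of all genes) and 4 at 72 h (23.5%). The 4 at 72 h were TGM1, with a smaller drop in mut cells, and KLK5, KLK7 and KLK10, with a more negative change in mut cells.

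The blocked interaction at 72 h was -2.53 ± 0.31 for KLK5 (limma-voom adjusted p = 2.62e-06), -2.48 ± 0.39 for KLK7 (adjusted p = 6.67e-05) and -2.53 ± 0.44 for KLK10 (adjusted p = 0.000205). Without the block it was -2.12 ± 1.49, -2.28 ± 1.96 and -2.21 ± 1.61 (adjusted p = 0.388, 0.498 and 0.409). Without the WT series 27-2 and without the block, the values were -2.53, -2.43 and -2.49 (adjusted p = 0.0627, 0.209 and 0.106). On sums of the replications of a clone, KLK5 passed and KLK7 and KLK10 did not (adjusted p = 0.0274, 0.12 and 0.0653). No kallikrein level passed between genotypes at 72 h by limma-voom, with log2 differences of -1.55 ± 1.23, -0.76 ± 1.61 and -1.31 ± 1.32 for KLK5, KLK7 and KLK10 (adjusted p = 0.332, 0.74 and 0.456). Without the WT series 27-2 they were -2.67, -1.99 and -2.46, and KLK5 and KLK10 passed (adjusted p = 0.00557, 0.127 and 0.0201). In the same order the adjusted p was 0.0171, 0.124 and 0.041 in edgeR, 0.00546, 0.0882 and 0.0194 in DESeq2 and 0.00101, 0.0388 and 0.00721 on sums of the replications of a clone.

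Across the 32 libraries the 10 genes can be described by correlations of log2 CPM, whose points share treatment, clone and series. KLK5, KLK7 and KLK10 ran closest together (Pearson r = 0.96 to 0.985), and KLK6 followed them at 0.8 to 0.836. SPRR1A, SPRR1B and A2ML1 formed a second set (r = 0.898 to 0.938), with SPRR3 at 0.739 to 0.826 to these. The coefficient between IVL and TGM1 was -0.428.

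Among the 12459 genes with a mean of at least 1 CPM, those most like SPRR1A and A2ML1 outside the 10 were SBSN (r = 0.943 and 0.957 over 32 libraries), which encodes the keratinocyte protein suprabasin, and MUC21, a mucin gene (0.932 and 0.934). The closest to KLK5 was the kallikrein KLK8 (0.89), to KLK6 CAMSAP3 (0.804), to KLK7 ARHGEF37 (0.905) and to KLK10 RARRES1 (0.889). The closest to IVL was MYO1E (0.917), to SPRR1B NOTCH3 (0.942), to SPRR3 SEMA3A (0.907) and to TGM1 CYP4B1 (0.963).

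Other genes of cornification were examined as 6 lists, of which 92 genes could be tested. In WT cells at 72 h 38 fell (41.3%, against 38.4% of all tested genes) and 16 rose (17.4%, against 13.9%). In mut cells at 72 h 20 fell (21.7%, against 16.3% of all tested genes) and 7 rose (7.61%, against 7.81%). The percentages beside the counts of each list are to be read against these shares of all genes. Of 25 tested envelope proteins, 11 fell (44%) and 4 rose (16%) in WT cells at 72 h (median log2 change -0.33). PPL, the envelope scaffold periplakin, went from 152 ± 52.7 to 18.4 ± 10.2 CPM (SD, n = 4, limma-voom log2 change -3.15 ± 0.42, adjusted p = 4.6e-07). LCE1B (-4.09 ± 0.78, adjusted p = 7.55e-05) and the filaggrin relative HRNR (-2.77 ± 0.87, adjusted p = 0.00871) also fell. Both were low, with WT means of 1.24 and 0.1 CPM for LCE1B and 0.904 and 0.218 CPM for HRNR in solvent and at 72 h. SPRR2G, a further proline-rich gene, had 0 counts in WT solvent and 602 at 72 h (3.35 ± 3.28 CPM). The lower limit of the exact 95% interval was 154-fold, which covers counting error in the summed counts and not the spread between series. Against 3 counts over the group, a lower floor than 3 counts in each library, the ratio was 190.0. In mut cells 4 of these envelope proteins fell (16%) and 2 rose (8%). The interaction at 72 h passed for 5 (20%), all positive, where 9.40% of all genes passed with a positive value, a direction that made up 76.3% of all called interactions and 52.2% with TMM. Among the 5 were LCE1B (3.40 ± 0.91, adjusted p = 0.0142) and LGALS7B (2.34 ± 0.58, adjusted p = 0.00874). LGALS7B is a near-identical copy of LGALS7, which was also among the 5, so that they are not separate cases and their counts are uncertain.

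Among 17 tested crosslinking, lipid barrier and processing enzymes, 6 fell (35.3%) and 3 rose (17.6%) in WT cells at 72 h, and 2 fell (11.8%) and 3 rose (17.6%) in mut cells. TGM2, the tissue transglutaminase, rose from 29.2 ± 11 to 767 ± 186 CPM in WT cells (limma-voom log2 change 4.76 ± 0.25, adjusted p = 1.71e-13), the opposite direction to TGM1, and its interaction was -2.39 ± 0.34, adjusted p = 6.29e-05. SULT2B1, a cholesterol sulfotransferase (-4.07 ± 1.05, adjusted p = 0.00192), the lipoxygenase ALOX12B (-2.91 ± 0.70, adjusted p = 0.000925) and the protease TMPRSS11E (-2.62 ± 0.68, adjusted p = 0.00184) fell. At 72 h the WT means were only 0.277, 0.121 and 0.134 CPM for SULT2B1, ALOX12B and TMPRSS11E. The interaction of ALOX12B was 2.79 ± 0.88, adjusted p = 0.0357, and rests on similarly low levels, with mut means of 0.378 CPM in solvent and 0.343 CPM at 72 h.

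Of 15 tested protease inhibitors, 8 fell (53.3%) and 4 rose (26.7%) in WT cells at 72 h, and 5 fell (33.3%) and 1 rose (6.67%) in mut cells. In WT cells SERPINB13 (-3.28 ± 0.40, adjusted p = 1.23e-07), SERPINB3 (-3.17 ± 0.60, adjusted p = 6.89e-05) and the inhibitor of epidermal kallikreins SPINK5 (-2.73 ± 0.54, adjusted p = 0.000124) fell, whereas SPINK6 rose by 3.15 (SE 0.44, adjusted p = 9.71e-07) in limma-voom.

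Of 19 tested transcription regulators of squamous cells, 9 fell (47.4%) and 2 rose (10.5%) in WT cells at 72 h, and 7 fell (36.8%) and 1 rose (5.26%) in mut cells. EHF, an epithelial ETS factor, went from 39.1 ± 22.2 to 2.66 ± 2.74 CPM in WT cells (limma-voom log2 change -4.09 ± 0.94, adjusted p = 0.000637). HOPX (-3.62 ± 0.87, adjusted p = 0.000946), ZNF750 (-3.51 ± 1.00, adjusted p = 0.00418) and BARX2 (-2.93 ± 0.77, adjusted p = 0.00222) fell in WT cells. HOPX went from a mean of 0.396 to 0.033 CPM, the latter below the level of 3 counts, so that the size of its change is uncertain. BARX2 was also low, at 0.972 and 0.201 CPM.

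Of 10 tested suprabasal and stress keratins, 4 fell (40%) and 3 rose (30%) in WT cells at 72 h, and 1 fell (10%) and 0 rose (0%) in mut cells. KRT13 (-3.62 ± 1.54, adjusted p = 0.0491), KRT4 (-3.57 ± 1.15, adjusted p = 0.0104), KRT78 (-1.80 ± 0.52, adjusted p = 0.00496) and KRT10 (-0.95 ± 0.22, adjusted p = 0.000713) fell in WT cells in limma-voom. KRT4 and KRT78 were low, with WT means of 0.0868 and 0.135 CPM at 72 h. The 3 keratins that rose in WT cells were KRT6A, KRT6B and KRT6C. Of the 6 other kallikreins tested, 0 fell and 0 rose in WT cells at 72 h, with a median log2 change of -1.34, and KLK1 fell in mut cells, where the median was -2.16.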

How the data were processed

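RNA sequencing reads of 32 MCF10A libraries had been trimmed with Trimmomatic, aligned to GRCh38 and counted per Ensembl gene with STAR by the authors, who deposited raw counts per gene and library. The libraries came from an unstranded kit, and the strand setting of the counting is not given in the sources used here. The table held 17788 genes, each with at least 4 counts in all, of which 17763 were named through GENCODE 44, and 0 of its sample columns were left unused. Replicates differed by more than sampling noise in every group (chi-square per degree of freedom of at least 10.51).

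Genes with too few counts were removed with filterByExpr (minimum count 10, minimum total 15), leaving 14865 genes for testing. Library size was the only scaling, and limma-voom (limma 3.58.1, edgeR 4.0.16, R 4.3.3) was fitted over all 32 libraries with a mean per group and no block. Two-sided p-values of 13 comparisons were adjusted by the Benjamini-Hochberg method over all tested genes, with a threshold of 0.05. Alternatives were culture series as a block, TMM factors, edgeR's quasi-likelihood test, DESeq2 1.42.0, other filters on low counts, sums of the replications of a clone, leaving out WT series 27-2, mut series 1-2 or each library in turn, and, chosen after seeing the data, the libraries of 1 genotype alone. In comparisons between genotypes the block was the replication number, because a culture series belongs to a single genotype. Clone and replication number come from the labels. Deviations from the group means were correlated within a series (mean r = 0.302, over 0.1 in 45 of 48 pairs, lowest 0.0296). The mean r was 0.0183 for the other replication of a clone and -0.0955 for the other clone of the same replication. Log2 ratios within a series used 0.5 added counts. Intervals of count ratios are exact 95% intervals and cover counting error only.

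All 10 genes are described whatever they showed. From each further list, up to 4 called genes with the largest change in WT cells at 72 h and up to 2 by the interaction at 72 h are named. The genes and lists were chosen with earlier results of these data known. The fitting was tested on simulated data.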

Additional observations from a re-analysis of the deposited data

Results flagged for a closer look

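The highest or lowest of 4 libraries lay far from the other 3 by Dixon's test in 3 of 88 groups, and chance flags about 1 in 20. SPRR3 was at 0.0438 CPM in mut 1-1 at 24 h, with 0 in the other libraries of that group. This was 2 counts, under the floor of 3 counts, and next to 3 libraries at 0 any count stands apart. TGM1 was at 101.0 CPM in mut solvent 1-2, against 129 to 134 CPM in the others. KLK6 was at 1.06 CPM in mut 1-2 at 6 h, against 1.85 to 1.99 CPM in the others.

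The TGFβ1 change differed between the genotypes in the limma-voom test of the difference with culture series as a block. In the limma-voom fit of all libraries without the block none of these passed, whereas TGM1 passed at both times without the WT series 27-2 (adjusted p = 0.00233 and 0.0036) and on sums of the replications of a clone (0.0199 and 0.0234) and at 24 h in DESeq2 (0.0354), SPRR1B without the WT series 27-2 (0.0254) and KLK5 on the sums (0.0274). On the log2 scale, mut minus WT, the blocked difference was 1.65 for SPRR1B and 1.39 for TGM1 at 24 h. At 72 h it was 1.23 for TGM1, -2.53 for KLK5, -2.48 for KLK7 and -2.53 for KLK10.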

How the results depend on the processing

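Of the alternatives for single genes, 0 reversed a called direction. With 1 library left out, 4092 values kept direction and side of the threshold, 51 lost the call and 17 gained it, and under the other alternatives the numbers were 1115, 18 and 97. The number of the 10 genes called moved by over 1.5 times as follows. With the replicate block it was 9 in WT at 24 h, 1, 7 and 9 in mut at 6, 24 and 72 h, and 2 and 4 for the interaction at 24 and 72 h. With TMM factors, and with no filter on low counts, it was 0 in mut at 24 h. Without the WT series 27-2 it was 2 and 7 in mut at 24 and 72 h, 7 between genotypes at 72 h, and 2 and 1 for the interaction at 24 and 72 h. Without the mut series 1-2 it was 2 between genotypes at 24 h. With edgeR it was 7 in mut at 72 h and 8 between genotypes at 72 h, and with DESeq2 it was 9, 8 and, for the interaction at 24 h, 1. With sums of the replications of a clone it was 8 in mut at 72 h, 9 between genotypes at 72 h, and 1 and 2 for the interaction at 24 and 72 h. On the libraries of 1 genotype alone it was 0 in WT at 6 h and 1, 6 and 9 in mut at 6, 24 and 72 h. Leaving out each library in turn gave 1 to 2, 5 to 6 and 5 to 6 in WT at 6, 24 and 72 h, 0, 0 to 1 and 1 to 6 in mut, 3 to 4, 5 to 6, 2 to 5 and 3 to 4 between genotypes in solvent and at 6, 24 and 72 h, and 0, 0 to 2 and 0 to 1 for the interaction. The lowest count in mut at 72 h came without mut 1-2 at 72 h and the highest without WT 27-2 at 6 h. Apart from the block, the shares of all genes called under these alternatives are not given here. These counts therefore only describe the 10 genes. The cause of these moves was not tested. Depth limits SPRR3 in mut cells and SPRR1A in mut cells at 72 h, where most libraries held a few counts or none.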
